A study of Mus musculus with 4 samples.

Results

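Bone morphogenetic protein (BMP) signalling was followed through 10 genes in single cells of whole noses from mouse embryos at embryonic day 14.5: the ligand genes Bmp2, Bmp3, Bmp4, Bmp5 and Bmp7, the Id response genes Id1, Id2 and Id3, and the inhibitory Smad genes Smad6 and Smad7. The members were the rows of these symbols among the 32285 genes of the matrices, and all 10 were found. Levels were read in the 13739 cells that passed a floor of 500 detected genes and a ceiling of 10% for mitochondrial UMIs (unique molecular identifiers, each of which marks 1 captured RNA molecule).

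The study profiled 2 control and 2 mutant libraries by 10x Genomics 3' droplet sequencing, to ask how loss of Yap and Taz in the neural crest affects olfactory ensheathing cells and the neurons of the nose. The mutant libraries are described as Tg(Sox10-cre)1Wdr/Yapflox/Tazflox on C57Bl/6J by the sample labels, and as Sox10cre carrying 1 floxed yap allele beside a wild-type one and 2 floxed taz alleles by the series design. Controls are C57Bl/6J by the labels but yap flox/flox and taz flox/flox without Cre by the design, which conflict, so groups are named here by their titles. Sox10-driven Cre acts in the neural crest and its derivatives, so most cells outside that lineage keep both genes in the libraries labelled mutant. Which gated cells belong to that lineage was not measured here, so mesenchyme, chondrocytes and osteoblasts are not taken as cells without Cre. The protocol speaks of 2 noses of each genotype, dissociated with papain and collagenase and frozen before loading, and names several sequencing providers without a library for each. Whether the libraries of a group came from separate embryos is not given in the sources used here, so p-values measure only the spread between these libraries.

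The libraries held 2474 to 4195 retained cells, with 19767873 to 35331450 UMIs in those cells and median depths of 5282 to 8549 UMIs per cell. At most 5 cell barcodes were shared between a pair of libraries. Of the retained cells, 12505 (91.0%) were assigned to a class by marker genes that include no member, and 9659 of them were mesenchyme. In the 118 cells gated as glia, the defining gene Sox10 was found in 89.8% against 0.670% of other gated cells, and Fabp7 and Foxd3 in 99.2% and 81.4%. The targeted genes gave at most a weak check of the labels. Levels are in CPM, a gene's UMIs divided by all UMIs of the summed cells, times 1e6. Yap1 in all cells was at 65.0 and 65.2 CPM in controls against 56.4 and 56.0 CPM in mutants. Wwtr1, which encodes Taz, overlapped there, at 118 and 145 CPM against 123 and 132 CPM. Yap1 was also lower in mutant basal keratinocytes, at 112 and 111 CPM in controls against 90.1 and 89.0 CPM. It overlapped in chondrocytes, osteoblasts and mural cells, so the drop in all cells cannot be assigned to cells with Cre. In glia, Yap1 was at 54.3 and 50.3 CPM in control libraries and, in mutants, 42.1 and 55.0 CPM. Glial Wwtr1 was at 225 and 180 CPM against 244 and 330 CPM. Reads from the 3' end may lie outside the deleted exons, so these levels do not test the deletion.

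BMPs are secreted dimers that bind pairs of type I and type II receptor kinases on a receiving cell. The receptors phosphorylate Smad1, Smad5 and Smad9 (also called Smad8), which enter the nucleus with Smad4 and switch on target genes. Id genes, encoding inhibitors of basic helix-loop-helix factors, are the best known of these targets, and Smad6 and Smad7 are targets that feed back to block the receptors. In the developing face, BMPs from epithelium and mesenchyme guide outgrowth, palate, cartilage and bone.

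The 5 ligand genes had different sources. Bmp3 and Bmp4 were higher in mesenchyme than in the other gated cells, Bmp5 had its highest mean in chondrocytes, Bmp2 in osteoblasts, and Bmp7 in basal keratinocytes and in a meninges-type region of the mesenchyme. Glia and macrophages held almost none of Bmp3, Bmp4 and Bmp5. Their gates, unlike those of chondrocytes, osteoblasts and mural cells, set aside cells with several mesenchyme factors, and the part of this was not tested. Each class was compared with all other gated cells of the same library by edgeR's quasi-likelihood test on summed counts with library as a block, and a call is a Benjamini-Hochberg adjusted p of at most 0.05 over all genes tested. Since 9659 of the gated cells were mesenchyme, the rest is mostly mesenchyme for every other class. The heat map of mean levels by class shows the 10 genes side by side. Columns of that map are not comparable with each other, because levels were not compared between genes.

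**Figure D1:**
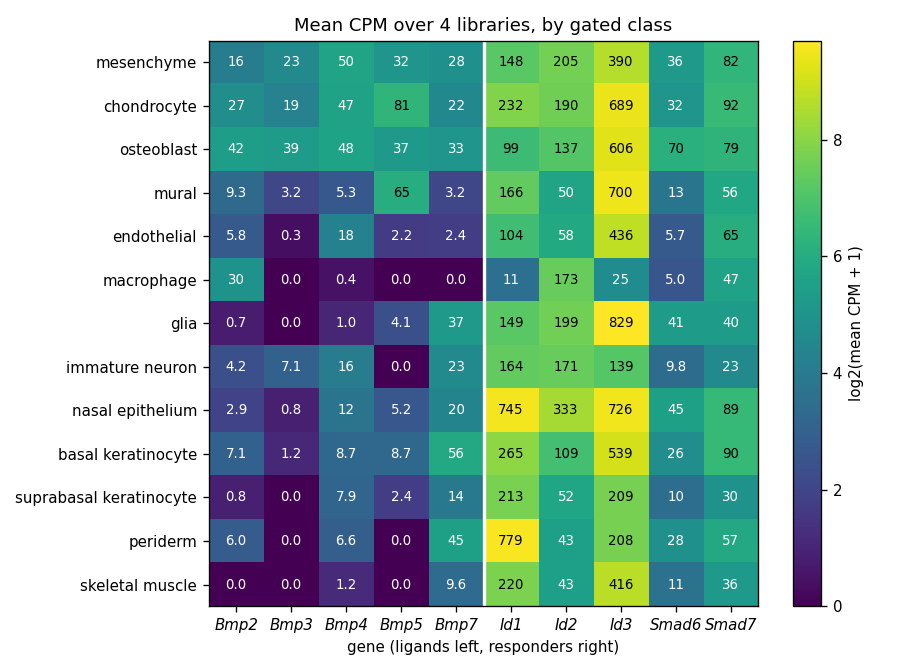
Mean level of the 10 genes (columns) in 13 gated classes (rows), with the mean CPM of the 4 libraries printed in each cell and the colour showing log2(mean CPM + 1). Id3 is at 829 CPM in glia and 25.5 CPM in macrophages, Bmp5 at 80.6 CPM in chondrocytes, and Bmp7 at 56.4 CPM in basal keratinocytes.

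Bmp4, a ligand with wide roles in facial outgrowth and tooth and palate formation, is on chromosome 14 (46383520 to 46390669, minus strand, GENCODE annotation of GRCm38). In mesenchyme it was at 44.3 and 47.1 CPM in control libraries and, in mutants, 51.6 and 56.3 CPM. The 4 libraries lay close together, and mesenchyme was above the rest of the gated cells by 1.68 ± 0.11 (log2, SE; means of 49.8 against 16.4 CPM; edgeR quasi-likelihood, adjusted p = 5.7e-06). Chondrocytes, at 38.4 to 54.4 CPM, and osteoblasts, at 27.0 to 79.2 CPM, overlapped mesenchyme in range and did not pass the test against the rest. Basal keratinocytes were lower by 2.29 ± 0.14 on the log2 scale (7.22 to 10.9 CPM; adjusted p = 4.24e-08). Glia held 1 Bmp4 UMI of 1126834 in all, so that the rest exceeded glia by a ratio of 44.2, with a 95% counting interval of 7.92 to 1745. Macrophages likewise held 1 UMI. Of mesenchyme cells thinned to 3000 UMIs, 11.2%, 11.5%, 13.4% and 12.7% held a Bmp4 UMI in control 1, control 2, mutant 1 and mutant 2 (unthinned 20.2%, 20.9%, 25.2% and 19.7%). In macrophages, which should lack the gene, 1 of 83 thinned cells of mutant 2 held 1 and no cell of the other libraries did.

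Bmp5, which takes part in cartilage and skeletal patterning, is on chromosome 9 (75775364 to 75900310, plus strand). It was at 81.0 and 78.6 CPM in control chondrocytes and, in mutant ones, 86.2 and 76.8 CPM. All 4 chondrocyte values lay above every mesenchyme value (29.2 to 37.6 CPM), and the class exceeded the rest by 1.63 ± 0.10 (means of 80.6 against 26.0 CPM; edgeR quasi-likelihood, adjusted p = 1.07e-09). Mural cells, the contractile cells of vessel walls, were also above the rest, by 1.21 ± 0.22 (adjusted p = 1.55e-05), with values of 61.4 and 51.9 CPM in control libraries and, in mutants, 109 and 35.7 CPM. That spread of the mural mutants covered both controls. The smaller excess in osteoblasts, 0.56 ± 0.21 (adjusted p = 0.0274), was no longer called without mutant 1 (adjusted p = 0.149), without mutant 2 (0.200), with DESeq2 or with no filter on low counts. Endothelial cells held 8 Bmp5 UMIs and were lower by a ratio of 11.7 (counting interval 5.91 to 27.0). Glia held 5 UMIs and were lower by a ratio of 6.57 (counting interval 2.81 to 20.2). Macrophages held none and were at least 25.6-fold lower than the rest, on a floor of 3 counts over the class.

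The promoters of these 2 ligand genes are shown because their levels were ordered differently over the classes. RefSeq promoter windows (250 bases before the RefSeq gene start, GRCm38.p6) could be matched for 5 of the 10 members: Bmp4, Bmp5, Id2, Id3 and Smad6. Each was searched on both strands for GGCGCC, a form of the GC-rich Smad1 and Smad5 element, and for GTCTG, which holds the Smad binding core. GGCGCC occurred in 9.59% and GTCTG in 42.2% of 32851 windows of the same length, and the letters of the 2 motifs do not overlap here. Sequences run 5' to 3' on the gene's strand, and capitals mark a match. The window of Bmp4 (chr14:46390670-46390919, minus strand) held neither motif and that of Bmp5 (chr9:75775115-75775363, plus strand) held 1 GTCTG, from 134 to 130 bases before the start.
Bmp4: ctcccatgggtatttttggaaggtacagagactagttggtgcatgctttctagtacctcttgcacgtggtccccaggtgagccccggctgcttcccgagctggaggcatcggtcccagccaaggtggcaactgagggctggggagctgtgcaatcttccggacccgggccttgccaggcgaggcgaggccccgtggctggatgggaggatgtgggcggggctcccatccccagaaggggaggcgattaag
Bmp5: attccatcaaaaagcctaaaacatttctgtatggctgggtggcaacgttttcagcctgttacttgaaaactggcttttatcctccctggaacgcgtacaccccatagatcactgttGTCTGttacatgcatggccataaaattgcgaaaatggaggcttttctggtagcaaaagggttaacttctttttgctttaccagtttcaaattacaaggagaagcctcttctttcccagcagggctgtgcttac
A match is a run of letters and was not tested as a binding site. The Bmp4 window had 63.2% G and C and the Bmp5 window 42.8%, against a median of 52.4% over all windows.

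Bmp2, a potent inducer of bone and cartilage, is on chromosome 2 (133552159 to 133562885, plus strand). It was at 46.6 and 36.7 CPM in control osteoblasts and, in mutant ones, 32.2 and 50.7 CPM, which overlapped between genotypes. Osteoblasts exceeded the rest by 1.77 ± 0.23 (means of 41.5 against 14.4 CPM; edgeR quasi-likelihood, adjusted p = 1.69e-13), and chondrocytes by 0.89 ± 0.16 (22.7 to 32.5 CPM; adjusted p = 0.000486). Bmp2 was the only ligand member with more than 1 UMI in macrophages: 34 and 22 in the controls and 11 and 13 in the mutants, or 43.4, 36.8, 20.2 and 19.5 CPM. Macrophages exceeded the rest by 1.21 ± 0.25 (adjusted p = 0.000108). Thinned to 3000 UMIs, 8.22%, 16.7%, 4.76% and 6.02% of macrophages held a Bmp2 UMI (unthinned 15.6%, 21.7%, 6.25% and 10.3%), where 0 of 40, 26, 31 and 19 thinned glial cells did, which allows up to 7.5%, 11.5%, 9.68% and 15.8% by the limit of 3 counts. Basal keratinocytes were lower than the rest by 1.24 and endothelial cells by 1.28 on the log2 scale (adjusted p = 0.000265 and 0.00227). Glia held 1 Bmp2 UMI, a ratio of 17.2 below the rest with a counting interval of 3.08 to 680.

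Bmp3, an atypical family member known to antagonise other BMPs, is on chromosome 5 (98854415 to 98884396, plus strand). Mesenchyme held it at 20.6 and 16.9 CPM in control libraries and, in mutants, 30.9 and 23.7 CPM, above the rest by 1.87 ± 0.13 (means of 23.0 against 6.32 CPM; edgeR quasi-likelihood, adjusted p = 6.96e-06). In osteoblasts it was at 33.5, 29.3, 56.9 and 36.7 CPM in control 1, control 2, mutant 1 and mutant 2. That was above the rest by 1.37 ± 0.23 (adjusted p = 1.75e-08), and 3 of the 4 values lay above all those of mesenchyme. Chondrocytes, at 13.3 to 22.8 CPM, overlapped mesenchyme and did not pass the test against the rest (0.18 ± 0.18, adjusted p = 0.548). Few Bmp3 UMIs were found in most other classes. It was at 0 UMIs in glia, macrophages, periderm, suprabasal keratinocytes and skeletal muscle, at 1 in endothelial cells and at 4 in nasal epithelium. Glia were thus at least 6.86-fold and macrophages at least 16.0-fold below the rest, while basal keratinocytes were lower by 3.76 ± 0.28 on the log2 scale (adjusted p = 1.96e-07).

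Bmp7, which is needed for eye, kidney and skeletal development, is on chromosome 2 (172868012 to 172940321, minus strand). Basal keratinocytes, the proliferating layer of the skin and oral lining, held it at 57.5 and 55.7 CPM in control libraries and, in mutants, 59.6 and 52.7 CPM. All 4 values lay above those of mesenchyme (26.6 to 29.5 CPM). The class exceeded the rest by 1.22 ± 0.10 (means of 56.4 against 25.0 CPM; edgeR quasi-likelihood, adjusted p = 5.6e-07). Glia also held Bmp7 in every library, at 56.9, 29.3, 47.7 and 13.8 CPM from 22, 7, 17 and 2 UMIs, and the excess of 0.51 ± 0.28 over the rest did not pass (adjusted p = 0.208). Thinned to 3000 UMIs, 20%, 7.69%, 12.9% and 5.26% of glial cells held a Bmp7 UMI (unthinned 27.5%, 14.8%, 38.7% and 10.0%). No macrophage did in any library, although the 2 classes had similar depth, with medians of 6730.5 to 10679 UMIs per library in glia and 7520 to 10314 in macrophages. Macrophages, with 0 UMIs, were at least 24.4-fold below the rest. Endothelial cells held 7 Bmp7 UMIs and mural cells 5, ratios of 12.7 (counting interval 6.15 to 31.6) and 8.92 (3.82 to 27.5) below the rest. Periderm was not tested because a library held 10 of its cells. It spread from 15 to 112 CPM, with control 2 far above the other 3 libraries.

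**Figure D2:**
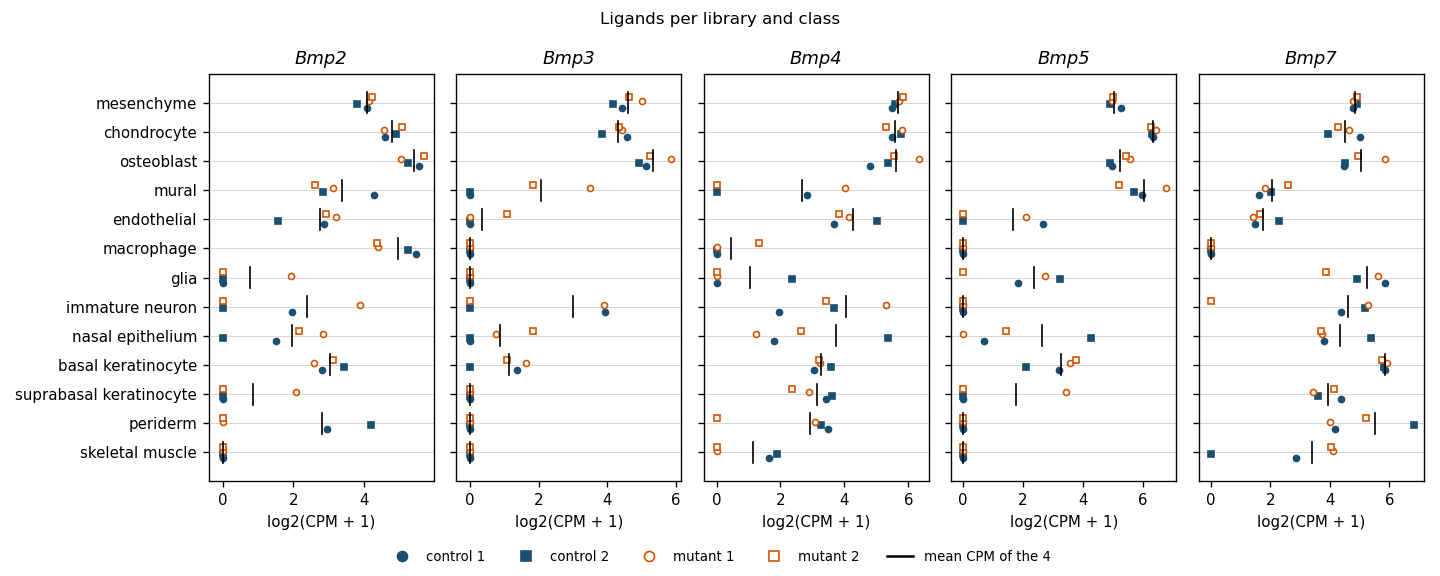
Levels of the 5 ligand genes in 13 classes, as log2(CPM + 1) on the horizontal axis, with circles and squares for replicate 1 and 2, filled for controls and open for mutants, and a black line at the mean CPM of the 4 libraries. Bmp4 lies together in mesenchyme (44.3 to 56.3 CPM), Bmp5 has its highest mean in chondrocytes (76.8 to 86.2 CPM), and all ligand genes but Bmp2 sit at or near 0 in macrophages.

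The responders were spread more widely than the ligands, and their order over classes differed between the 3 Id genes. Id3 was highest in glia, Id1 in the epithelia of the nose and the periderm, and Id2 in nasal epithelium with mesenchyme, glia, chondrocytes and macrophages next. Macrophages marked the floor for Id1 and Id3 but not for Id2.

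Id3, known to keep progenitors from differentiating and to respond to BMPs in neural crest, is on chromosome 4 (136143497 to 136145755, plus strand). It was at 828 and 658 CPM in control glia and 882 and 949 CPM in mutant glia, from 320, 157, 314 and 138 UMIs. Glia exceeded the rest by 0.90 ± 0.11 (means of 829 against 422 CPM; edgeR quasi-likelihood, adjusted p = 1.32e-13) in 4 of 4 libraries. The next classes in order, nasal epithelium (523 to 1183 CPM), mural cells (658 to 762 CPM), chondrocytes (629 to 726 CPM) and osteoblasts (469 to 702 CPM), overlapped glia in range. Of these, mural cells were above the rest by 0.76 ± 0.09 (adjusted p = 1.55e-10), chondrocytes by 0.74 ± 0.06 (2.36e-08) and osteoblasts by 0.72 ± 0.09 (2.4e-14). Mesenchyme, at 351 to 426 CPM, was below the rest by 0.34 ± 0.04 (adjusted p = 0.000238) and overlapped no library of glia. Macrophages held 34.5, 6.70, 20.2 and 40.4 CPM, a difference of -3.92 ± 0.18 from the rest (adjusted p = 7.66e-19). Thinned to 3000 UMIs, 77.5%, 73.1%, 71.0% and 78.9% of glial cells held an Id3 UMI (unthinned 97.5%, 88.9%, 90.3% and 85.0%). In macrophages 5.48%, 0%, 7.14% and 8.43% of thinned cells did (unthinned 14.3%, 5.0%, 10.4% and 14.9%), and 0 of 48 cells in control 2 allows up to 6.25% by the limit of 3 counts. Exact 95% intervals ran from 52.0% to 93.9% over the glial libraries and from 0% to 19.5% over the macrophage libraries, and they cover counting error only.

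Id1, which BMPs switch on in many cell types, is on chromosome 2 (152736251 to 152737410, plus strand). Nasal epithelium held it at 768 and 800 CPM in control libraries and, in mutants, 806 and 605 CPM, and periderm at 893, 676, 1075 and 473 CPM. Both lay above every library of every other class in the heat map, the highest of which was 315 CPM in control 2 chondrocytes, and both had fewer than 20 cells in a library and were not tested. Among the tested classes, basal keratinocytes, at 208 to 298 CPM, exceeded the rest by 0.57 ± 0.08 (edgeR quasi-likelihood, adjusted p = 0.000111). Mesenchyme was lower than the rest by 0.83 ± 0.12 (means of 148 against 267 CPM; adjusted p = 0.000568), osteoblasts by 0.78 ± 0.13 (3.3e-08) and endothelial cells by 0.78 ± 0.16 (0.000107). Macrophages, at 26.8, 5.02, 9.20 and 1.50 CPM, were lower by 3.93 ± 0.26 (adjusted p = 4.77e-15). In glia Id1 was at 106, 67.0, 135 and 289 CPM, so the libraries differed by more than 4 times between control 2 and mutant 2. The glial deficit of 0.54 ± 0.16 (adjusted p = 0.00587) was no longer called without control 1 (0.40 lower, adjusted p = 0.192), without control 2 (0.29 lower, 0.255) or with DESeq2 (0.375). The excess of chondrocytes, 0.31 ± 0.08 (adjusted p = 0.0111), was not called without control 2 (0.0565) or without mutant 1 (0.0510).

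Id2, which acts in neural, immune and skeletal precursors, is on chromosome 12 (25093799 to 25097140, minus strand). Nasal epithelium was at 340 and 464 CPM in control libraries and, in mutants, 264 and 262 CPM, with the lowest value above all of mesenchyme (184 to 226 CPM). Mesenchyme exceeded the rest by 0.56 ± 0.06 (edgeR quasi-likelihood, adjusted p = 6.13e-05). Vessel-related classes were lowest among the tested ones: mural cells were below the rest by 1.87 ± 0.18 (47.1, 21.4, 91.5 and 40.8 CPM; adjusted p = 3.84e-13) and endothelial cells by 1.65 ± 0.16 (adjusted p = 1.2e-10). Basal keratinocytes were lower by 0.79 ± 0.08 (adjusted p = 6.05e-06), where the same cells were higher in Id1 and Id3. Macrophages held Id2 at 197, 117, 223 and 156 CPM, a difference from the rest of 0.03 ± 0.13, with 27.1% to 35.6% of thinned cells holding an Id2 UMI. Glia were at 189, 79.6, 225 and 303 CPM, a difference of -0.03 ± 0.15 from the rest.

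**Figure D3:**
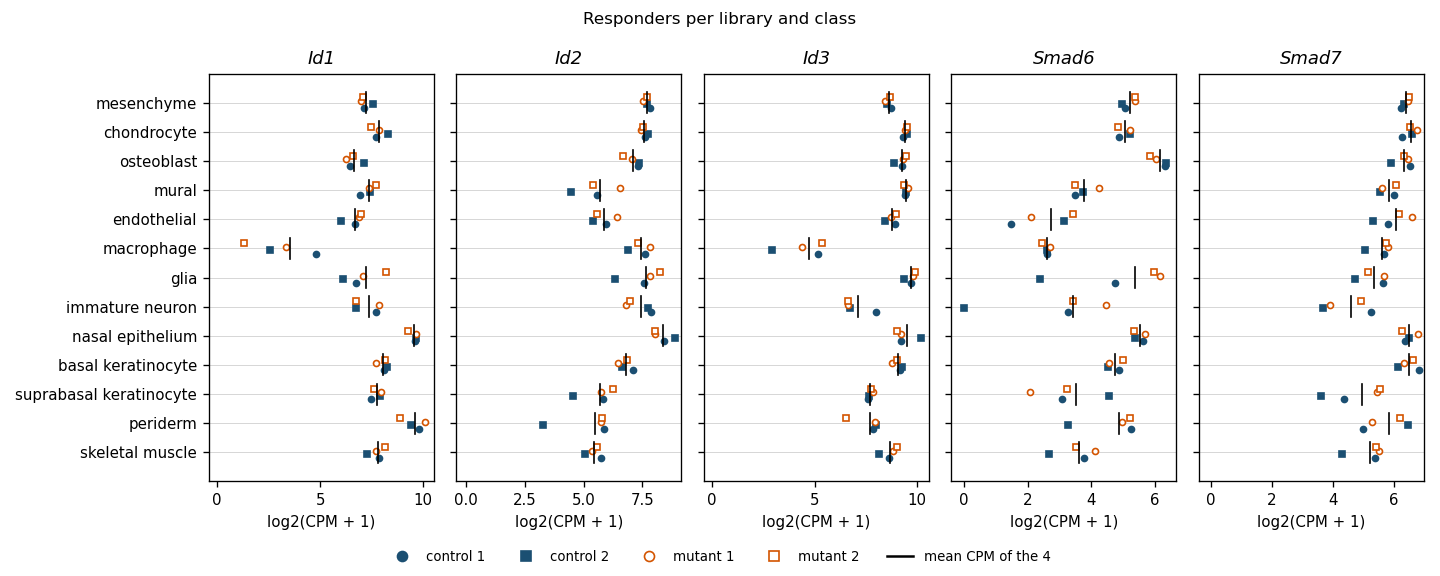
Levels of Id1, Id2, Id3, Smad6 and Smad7 in 13 classes, as log2(CPM + 1), with circles and squares for replicate 1 and 2, filled for controls and open for mutants, and a black line at the mean CPM of the 4 libraries. Id3 in glia lies between 658 and 949 CPM, and macrophages are lowest for Id1 and Id3 but hold Id2 at 117 to 223 CPM.

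Of the inhibitory Smads, Smad6, which blocks BMP receptors in preference to TGF-beta receptors, is on chromosome 9 (63953076 to 64022059, minus strand). It was at 78.3 and 80.7 CPM in control osteoblasts and, in mutant ones, 64.3 and 56.0 CPM, all above the highest value of every class but glia. Osteoblasts exceeded the rest by 1.32 ± 0.17 (means of 69.8 against 32.3 CPM; edgeR quasi-likelihood, adjusted p = 2.84e-13), and mesenchyme did so by 0.46 ± 0.08 (adjusted p = 0.00161). Endothelial cells, at 1.80 to 9.82 CPM, were lower by 2.56 ± 0.30 (adjusted p = 8.91e-09), macrophages by 2.58 ± 0.31 (1.47e-08) and mural cells by 1.39 ± 0.31 (0.000437). Glia spread from 4.19 CPM in control 2 to 70.2 CPM in mutant 1, on 10, 1, 25 and 9 UMIs. Smad7, which blocks BMP and TGF-beta receptors alike, had class means from 23.0 to 92.5 CPM. Its values were 49.2, 25.1, 50.5 and 34.4 CPM in glia, lower than the rest by 0.99 ± 0.23 (adjusted p = 0.000153), and 49.8, 31.8, 55.2 and 52.4 CPM in macrophages, lower by 0.60 ± 0.16 (0.0022). Chondrocytes (76.1 to 108 CPM) and basal keratinocytes (68.8 to 112 CPM) did not pass the test for Smad7. The calls on Smad7 in mesenchyme (0.21 ± 0.08, adjusted p = 0.0386) and mural cells (0.47 lower, 0.0482) and on Smad6 in basal keratinocytes (0.35 lower, 0.0416) were fragile: the mural call was lost without each library in turn, and the other 2 without each library but control 1, with adjusted p up to 0.112, 0.245 and 0.313 in that order.

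The 2 responders with printable promoter bases are given for comparison with the ligands. The Id2 window holds 1 GGCGCC, from 231 to 226 bases before the RefSeq start. That window lies inside the GENCODE gene span, whose start on the minus strand is 25097140, so the match is not upstream of the GENCODE start. Only the 89 bases outside annotated exons are printed (chr12:25096254-25096342, minus strand). The Smad6 window (chr9:64022060-64022309, minus strand) held neither motif.
Id2: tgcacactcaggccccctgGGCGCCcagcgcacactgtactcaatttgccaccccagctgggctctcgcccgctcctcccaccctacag
Smad6: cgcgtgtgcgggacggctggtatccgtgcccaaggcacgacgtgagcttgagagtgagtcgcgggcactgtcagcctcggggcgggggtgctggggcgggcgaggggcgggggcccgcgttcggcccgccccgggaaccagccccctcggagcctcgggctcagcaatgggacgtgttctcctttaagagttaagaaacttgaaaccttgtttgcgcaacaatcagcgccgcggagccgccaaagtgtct
The Id3 window (chr4:136143572-136143821, plus strand) lay within an annotated exon, past the GENCODE start at 136143497, and is not printed. It held 2 GTCTG matches. The share of G and C was 62.8% in the Id2 and Id3 windows and 66.8% in that of Smad6.

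Counted over the 10 members, 6 were higher and 2 lower in mesenchyme than in the rest, where 28.2% of all genes tested were called higher and 30.4% lower. The members' median difference was 0.38 on the log2 scale against -0.01 for all genes. Osteoblasts had 5 members higher (13.6% of genes) and 1 lower (18.9% of genes), with a median of 0.48 against -0.18, and chondrocytes had 4 higher (8.91%) and 0 lower (13.6%). Endothelial cells had 0 higher (16.5%) and 8 lower (25.1%), mural cells 2 higher (7.45%) and 6 lower (11.0%), and basal keratinocytes 3 higher (20.8%) and 6 lower (27.3%). In macrophages 1 member was higher (21.0%) and 8 were lower (35.9%), with a median of -3.93 against -0.36. In glia 1 was higher, Id3 (7.48% of genes), and 6 were lower (13.4%), with a median of -0.76 against -0.20. By edgeR and by DESeq2, 0 members were lower in chondrocytes or higher in endothelial cells at an unadjusted p under 0.05. In glia and macrophages the members with no UMIs lie below the members' median whether taken at their fitted value or at their bound. Of the 16 dissociation stress genes, 2 were higher and 12 lower in glia, 1 and 14 in mesenchyme, 13 and 1 in basal keratinocytes, 9 and 3 in macrophages, 8 and 3 in chondrocytes and 8 and 1 in mural cells; their part in the class differences was not tested.

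Regions of the mesenchyme divided the members again. Cells were gated by regional transcription factors and other genes into a meninges-type (315 cells), a palate-type (534 cells) and a dermis-type (1958 cells) group, and each was compared with the other mesenchyme. Dermis-type cells were low in 4 of the 5 ligands and in 2 Id genes, meninges-type cells were high in Bmp5, Bmp7 and Id3, and palate-type cells were high in Bmp2 and Bmp4 and low in Bmp5.

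In meninges-type cells Bmp7 was at 119 and 94.4 CPM in control libraries and, in mutants, 18.3 and 65.1 CPM, from 117, 111, 5 and 42 UMIs. Both controls and mutant 2 lay above the 29.5 CPM that was the highest value in mesenchyme as a whole, and mutant 1, with 26 cells, lay below it. The excess over other mesenchyme was 1.72 ± 0.25 (edgeR quasi-likelihood, adjusted p = 0.0001) and that of Bmp5 was 1.33 ± 0.20 (113, 70.6, 91.4 and 34.1 CPM; adjusted p = 0.000125). Id3 was at 687 and 592 CPM in control libraries and, in mutants, 735 and 840 CPM, above other mesenchyme by 0.90 ± 0.09 (adjusted p = 1.53e-06). Id2 was instead lower, by 0.81 ± 0.13 (adjusted p = 0.000411), and Smad7 by 0.66 ± 0.13 (0.00155). Smad6, lower by 0.81 ± 0.23 (adjusted p = 0.0257), was not called without mutant 2 (0.123). In all, 3 members were higher (7.18% of genes) and 3 lower (6.8%). The related ligand gene Bmp6 was higher too, at a mean of 119 against 27.4 CPM (2.08 ± 0.26, adjusted p = 1.94e-05). The antagonist gene Sostdc1 was lower, at 56.7 against 251 CPM (by 2.37 ± 0.18, adjusted p = 9.99e-08). Of 16 dissociation stress genes, 8 were higher and 0 lower in these cells; their part in the result was not tested.

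In palate-type cells Bmp4 was at 67.7 and 70.6 CPM in control libraries and, in mutants, 67.6 and 92.0 CPM, above other mesenchyme by 0.55 ± 0.11 (edgeR quasi-likelihood, adjusted p = 0.00169). Bmp2 was at 25.0, 31.2, 26.7 and 35.9 CPM, above it by 0.86 ± 0.17 (adjusted p = 0.00189), and Bmp5 was lower by 0.98 ± 0.17 (adjusted p = 0.000505). With 1 more marker required per cell, Bmp5 alone was still called, and the excess was 0.97 for Bmp2 (adjusted p = 0.0575) and 0.30 for Bmp4 (0.603). By the main gate 4 members were higher (3.51% of genes) and 1 lower (4.88%), the other 2 being Id3, by 0.40 ± 0.06 (adjusted p = 0.000124), and Id1, by 0.37 ± 0.09 (0.0162; 0.123 without control 2 and 0.0508 without mutant 1). Beside them the BMP receptor gene Bmpr1b was higher, at 39.5 against 21.2 CPM (0.86 ± 0.16, adjusted p = 0.0011), and the antagonist gene Nog lower, at 1.81 against 6.66 CPM (by 1.67 ± 0.46, adjusted p = 0.0252). Of the dissociation stress genes 5 were higher and 0 lower in palate-type cells; their part was not tested.

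In dermis-type cells 0 members were higher (6.39% of genes) and 7 lower (5.76%), with a median of -0.43 over the members, and 0 were higher at an unadjusted p under 0.05 by edgeR or DESeq2. Bmp4 was at 31.4, 27.0, 33.0 and 35.0 CPM, lower than in other mesenchyme by 0.80 ± 0.08 (edgeR quasi-likelihood, adjusted p = 1.21e-05). Bmp7 and Bmp3 were each lower by 0.88 ± 0.10 (adjusted p = 5.1e-05 and 4.43e-05), and Bmp2 by 1.18 ± 0.21 (0.00181), while Bmp5 differed by -0.39 ± 0.12 and did not pass (0.0527). Among responders Id3 was lower by 0.47 ± 0.04 (332, 301, 269 and 296 CPM; adjusted p = 7.07e-06), Id1 by 0.34 ± 0.05 (0.000878) and Smad7 by 0.32 ± 0.07 (0.00728), while Id2 differed by 0.05 ± 0.04. With 1 more marker required, Bmp2, Id1 and Smad7 were no longer called (adjusted p = 0.0805, 0.130 and 0.173), and Smad7 was not called without mutant 2 (0.0550). Bmp6 was lower too, at 16.4 against 37.2 CPM. The antagonist gene Grem1 was higher, at 13.0 against 6.41 CPM. Of the dissociation stress genes 0 were higher and 5 lower here, and their part was not tested.

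The other genes of the pathway were read from 5 lists of 65 genes: other ligands, receptors, extracellular antagonists and modulators, transducers with intracellular brakes, and other responders. In mesenchyme 10 of 17 tested antagonist and modulator genes were higher and 3 lower than in the rest, with a median of 0.67, and Grem1 was at 7.96 against 0.745 CPM. Of all genes tested in mesenchyme, 28.2% were called higher and 30.4% lower. Of 13 receptor genes 5 were higher and 7 lower, led by the co-receptor gene Tgfbr3 at 291 against 54.7 CPM (2.44 ± 0.07; edgeR quasi-likelihood, adjusted p = 7.47e-08). Among the other 6 ligand genes 3 were higher and 2 lower, among 12 transducers 5 and 3, and among 10 responders 5 and 4. Glia had 4 antagonist and modulator genes higher (7.48% of all genes tested) and 10 lower (13.4%) of 17, and Grem1 was at 0 UMIs there.

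Of 12 receptor genes 1 was higher in glia, Rgmb, which encodes a BMP co-receptor of neural cells, at 63.5 against 21.3 CPM (1.53 ± 0.26; edgeR quasi-likelihood, adjusted p = 8.37e-08). The 2 lower ones included Bmpr1b, at 7.90 against 47.3 CPM (2.37 ± 0.37 lower, adjusted p = 2.55e-09). Of the 12 transducers 1 was higher in glia, Pmepa1, a brake on TGF-beta signalling, at 183 against 102 CPM (adjusted p = 1.99e-05), and 2 were lower. Of 10 other responders 1 was higher and 5 lower, and Dlx3 and Dlx5 were at 0 UMIs. Osteoblasts had 5 transducers higher (13.6% of all genes tested) and 1 lower (18.9%). Smad9, a signal carrier, was at 21.3 against 4.25 CPM (2.58 ± 0.36, adjusted p = 1.24e-11), and Bambi, a decoy receptor gene, at 150 against 42.1 CPM (2.00 ± 0.14, adjusted p = 3.16e-45). Dlx3, a bone-associated homeobox gene, was at 58.6 against 2.74 CPM in osteoblasts, and Bmp8a at 26.3 against 4.60 CPM, while Bmpr1b was at 2.49 against 47.9 CPM. In chondrocytes Bmpr1b was the higher one, at 86.8 against 44.8 CPM (0.95 ± 0.11, adjusted p = 2.61e-06), with the BMP-binding gene Bmper at 98.4 against 18.5 CPM and the homeobox gene Msx2 at 36.4 against 8.76 CPM. Endothelial cells were lower in Bmpr1a, at 6.28 against 168 CPM, and higher in the co-receptor gene Eng, at 198 against 12.6 CPM. They had 15 of 18 antagonist and modulator genes lower (25.1% of all genes tested) and 1 higher (16.5%).

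Within mesenchyme, cells with a UMI of a ligand were compared with cells of the same library without it, after each cell was thinned to 3000 UMIs, a comparison chosen after the class results were seen. Bmp2, Bmp4 and Bmp7 were each higher in cells with the others, Bmp3 and Bmp4 in each other's cells, no ligand pairing with Bmp5 passed the test, and Id3 was higher in cells with each ligand but Bmp7. Between 205 and 332 cells per library held a Bmp4 UMI. In them Bmp7 was at 47.8, 63.4, 54.0 and 61.2 CPM, against 25.4, 23.9, 24.4 and 25.8 CPM in cells without, a difference of 1.13 ± 0.14 (edgeR quasi-likelihood, adjusted p = 3.77e-07). Cells with Bmp7 held Bmp4 at 110 against 49.3 CPM (1.11 ± 0.12, adjusted p = 1.8e-07), and cells with Bmp2 held it at 112 against 51.2 CPM (1.09 ± 0.16, adjusted p = 4.16e-07). Bmp2 was at 32.2 against 14.1 CPM in cells with Bmp4 (1.15 ± 0.17, adjusted p = 1.4e-05) and at 34.9 against 14.8 CPM in cells with Bmp7 (1.17 ± 0.22, 0.000796). The Bmp7 excess in cells with Bmp2, 0.87 ± 0.23 (adjusted p = 0.0182), was not called without mutant 1 (0.279) or mutant 2 (0.313), in cells not thinned (0.389) or outside the regions (0.259). Bmp3 was at 39.9 against 23.7 CPM in cells with Bmp4 (0.71 ± 0.15, adjusted p = 0.00227). Bmp4 was at 82.3 against 52.1 CPM in cells with Bmp3 (0.57 ± 0.15, 0.0108), a call lost without control 1 (0.0872), without mutant 2 (0.171) and outside the regions (0.0912). In cells with Bmp5, Bmp4 was at 48.5 against 54.3 CPM, a difference of -0.22 ± 0.17 (adjusted p = 0.640).

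Id3 was at 489, 589, 514 and 513 CPM in cells with Bmp5 and 426, 372, 348 and 401 CPM in cells without. The groups did not overlap, and the difference was 0.41 ± 0.07 (edgeR quasi-likelihood, adjusted p = 0.000125). The differences for Id3 were smaller with Bmp2 (0.28 ± 0.08, adjusted p = 0.0270), Bmp3 (0.28 ± 0.07, 0.00783) and Bmp4 (0.25 ± 0.06, 0.00763), and it was -0.08 ± 0.07 with Bmp7 (0.782). Outside the 3 gated regions those with Bmp2, Bmp3 and Bmp4 were no longer called (adjusted p = 0.143, 0.0957 and 0.224), nor were they without mutant 2 (0.202, 0.0644 and 0.0794). The Bmp2 and Bmp4 values were also not called without control 1 (0.0842 and 0.103), the Bmp3 value without control 2 (0.112), and the Bmp2 and Bmp3 values without mutant 1 (0.319 and 0.0631). Id2 was lower in cells with Bmp3, at 163 against 215 CPM (by 0.46 ± 0.10, adjusted p = 0.00128; 0.0721 without mutant 2). It was also lower in cells with Bmp7, at 171 against 215 CPM (by 0.38 ± 0.09, adjusted p = 0.0110), but not outside the regions (0.476), without control 1 (0.167) or without mutant 2 (0.117). It was higher with Bmp5 (0.33 ± 0.10, adjusted p = 0.0474), but not without control 1 (0.0594), mutant 1 (0.514) or mutant 2 (0.176). Id1 was higher with Bmp2 (0.39 ± 0.11, adjusted p = 0.0439), a call lost without each library in turn. The share of all genes called was 1.7% for Bmp2, 3.65% for Bmp3, 3.82% for Bmp4, 4.06% for Bmp5 and 2.91% for Bmp7. The regions were unevenly divided: meninges-type cells made up 9.09% and 18% of control cells with Bmp5 against 3.17% and 5.62% of those without. Their part in the differences within all mesenchyme is given only by the values outside the regions.

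**Figure D4:**
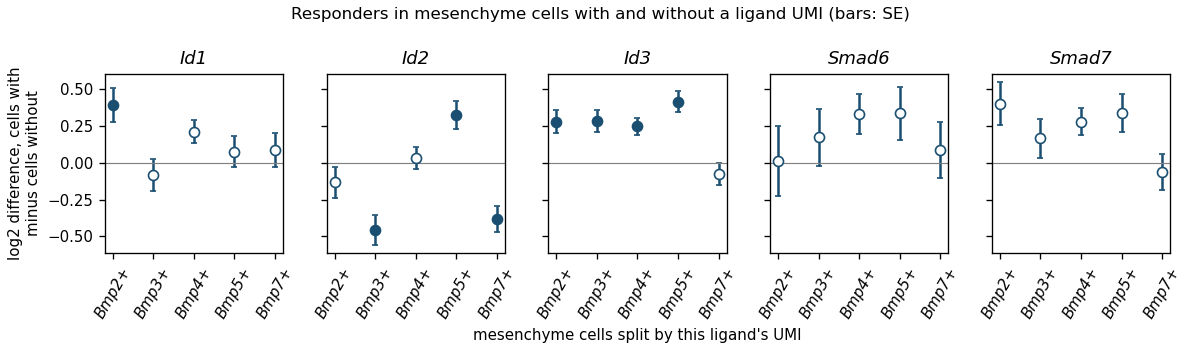
Difference in Id1, Id2, Id3, Smad6 and Smad7 between mesenchyme cells with and without a UMI of a ligand, as log2 difference with bars of 1 SE. Each panel shows 1 responder, with the ligands along the horizontal axis, and points are filled where the adjusted p is at most 0.05. Id3 is at 0.41 in cells with Bmp5 and at -0.08 in cells with Bmp7.

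Between genotypes no member was called. The question was whether ligand or response genes differ in the libraries labelled mutant, and it was put to 12 cell groups: all cells, the 8 tested classes and the 3 mesenchyme regions. Of 99 member tests by edgeR's quasi-likelihood test 0 passed at an adjusted p of 0.05, and DESeq2 called 0 as well. By edgeR 22 of the 99 had an unadjusted p under 0.05. They ranged from 0 of 10 members in chondrocytes (439 of 9883 genes) to 4 of 10 in dermis-type cells (1028 of 12716). In glia they were 3 of 6 (256 of 5381 genes) and in mesenchyme 3 of 10 (1230 of 15947). All cells had 3 of 10 (883 of 18080), meninges-type cells 3 of 10 (639 of 8938) and palate-type cells 2 of 10 (324 of 9888). Osteoblasts had 1 of 10 (195 of 6470) and basal keratinocytes 1 of 9 (703 of 11119). Endothelial cells had 1 of 5 (522 of 8074), macrophages 1 of 4 (361 of 6980) and mural cells 0 of 5 (586 of 6202). The groups are nested, since all cells hold every class and mesenchyme its 3 regions, so the 99 tests share UMIs. Few genes of any kind were called: 0.0% in all cells, chondrocytes, dermis-type cells, glia, osteoblasts and palate-type cells, 0.135% in basal keratinocytes, 0.149% in endothelial cells, 0.0143% in macrophages, 0.123% in meninges-type cells, 0.0125% in mesenchyme and 0.161% in mural cells. The 2 control and 2 mutant values did not overlap in 42 of the 99, where 36.7% of all genes tested in the 12 groups did so. Osteoblasts had 7 of 10 such members, 5 higher and 2 lower in mutants, and dermis-type and meninges-type cells 6 of 10 each. Chondrocytes and palate-type cells had 1 of 10 each and mural cells 0 of 5. None of the 65 pathway genes was called in any of the 12. Among the 16 dissociation stress genes 2 were called, in basal keratinocytes: Hspa1a at 24.8 and 14.2 CPM in controls against 132 and 200 CPM in mutants, and Hspa1b at 50.9 and 32.8 CPM against 148 and 203 CPM.

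In glia the libraries labelled mutant held more of Id1, Id2, Id3 and Smad6 than both controls, on 20 to 40 cells per library, and no difference passed the test. Id1 in glia, given above, was at 106 and 67.0 CPM in control libraries and, in mutants, 135 and 289 CPM, and both mutants lay above both controls. The difference was 1.07 ± 0.39 (log2, mutant minus control; unadjusted p = 0.0205, edgeR quasi-likelihood adjusted p = 0.923). Id2 differed by 0.81 ± 0.36, Smad6 by 1.87 ± 0.58 on 45 UMIs in all, Id3 by 0.21 ± 0.20, Smad7 by 0.13 ± 0.48 and Bmp7 by -0.38 ± 0.55. Values did not overlap for Id1, Id2, Id3 and Smad6, 4 of 6 tested members, against 36.0% of genes in glia. Without control 1 the test called Id1 (1.45, adjusted p = 0.0370), Id2 (1.61, 0.00956) and Smad6 (3.79, 0.0213), and without any other library none. That fit rests on control 2 alone, whose spread is taken to be that of the mutants and whose 27 cells held 1 Smad6 UMI. Summed over 16 dissociation stress genes, glia were at 2117 and 1445 CPM in control libraries and, in mutants, 3268 and 3582 CPM, which moves the same way, and 0 of the 14 tested were called; their part in the result was not tested.

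In mesenchyme Bmp3, given above, differed by 0.50 ± 0.16 (unadjusted p = 0.0142, edgeR quasi-likelihood adjusted p = 0.514), with both mutants above both controls. Smad6 was at 32.3 and 30.1 CPM in control libraries and, in mutants, 40.7 and 40.8 CPM, a difference of 0.34 ± 0.10 (adjusted p = 0.468). Id1 was at 140 and 191 CPM in control libraries and, in mutants, 126 and 136 CPM, a difference of -0.38 ± 0.15 (adjusted p = 0.603), the opposite sign to glia. Values did not overlap for 6 of 10 members, against 40.6% of genes. Without control 1, Bmp3 (0.66, adjusted p = 0.0278) and Id1 (-0.59, 0.00272) were called. With no filter on low counts and all 4 libraries Bmp3 was called (0.50, adjusted p = 0.0124). The stress sum was 2526 and 3486 CPM in control mesenchyme and, in mutant ones, 2187 and 3221 CPM, which overlap.

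Elsewhere Bmp7 in the meninges-type cells differed by -1.13 ± 0.36 (edgeR quasi-likelihood adjusted p = 0.420), and the low value was that of mutant 1, the library with 26 such cells. Bmp4 there was at 85.8, 90.2, 18.3 and 71.3 CPM, with mutant 1 again lowest on 5 UMIs. Without mutant 2 both were called (2.52 and 2.24 lower, adjusted p = 0.000823 and 0.00452). The stress sum there was 2529 and 4460 CPM in controls against 5108 and 5372 CPM in mutants, which did not overlap; its part in the result was not tested. Bmp2 in macrophages differed by -1.01 ± 0.35 (adjusted p = 0.872), with both mutants below both controls. Bmp3 in palate-type cells differed by 1.29 ± 0.36 (adjusted p = 0.798). Values of Bmp5 in chondrocytes and of Bmp7 in basal keratinocytes overlapped between control and mutant libraries.

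**Figure D5:**
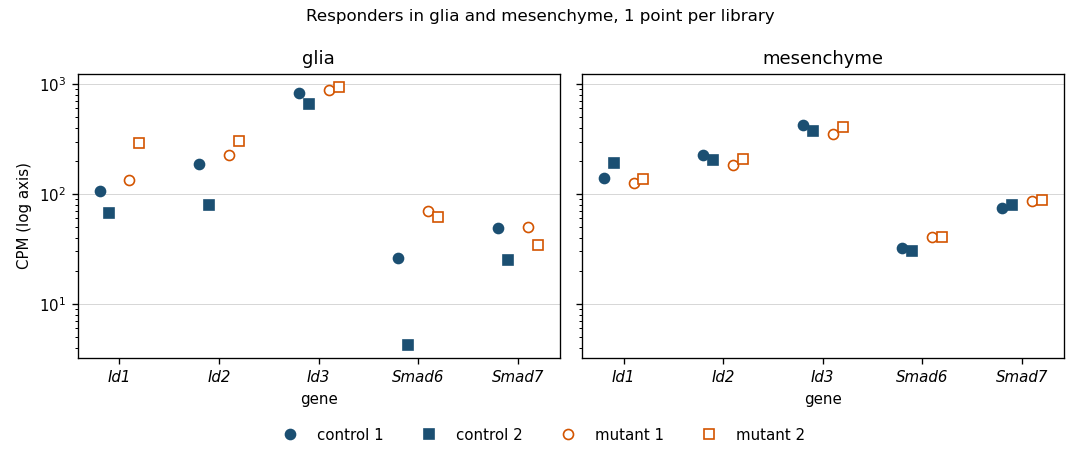
Levels of Id1, Id2, Id3, Smad6 and Smad7 in glia and mesenchyme of each library, as CPM on a log axis, with controls filled and mutants open. In glia Id1 lies at 67.0 and 106 CPM in control libraries and, in mutants, 135 and 289 CPM, and in mesenchyme at 140 and 191 against 126 and 136 CPM.

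The difference between glia and mesenchyme was then tested itself, as the interaction of class and genotype with library as a block. It is not a comparison of cells with and cells without Cre, since the lineage of the mesenchyme was not measured. Id1 was the 1 member called: its genotype difference in glia exceeded that in mesenchyme by 1.37 ± 0.34 (edgeR quasi-likelihood, adjusted p = 0.0324), where 27 of 14675 genes (0.184%) were called. Glial Id1 was higher in both mutants and mesenchymal Id1 lower in both. The call was lost without control 2 (0.91, adjusted p = 1.00) and without mutant 2 (0.94, 1.00), with DESeq2 (1.46, 1.00), with no filter on low counts (1.36, 0.0595) and with 1 more marker required (1.32, 0.0503), and it held without control 1 (2.01) and without mutant 1 (1.84). Id2 followed with 1.02 ± 0.30 (adjusted p = 0.189; 0.0120 without control 1) and Smad6 with 1.56 ± 0.58 (0.694). For Id3 the value was 0.33, for Smad7 -0.04 and for Bmp7 -0.35. The stress sum given above also differed by genotype in glia and overlapped in mesenchyme; its part in the result was not tested.

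Over the 13 class means, Bmp3 and Bmp4 were most alike among the members (Pearson r = 0.88 on log2(CPM + 10)). Bmp7 and Smad6 followed (0.73), then Bmp3 with Bmp2 and with Bmp5 (0.71 each), Bmp4 and Bmp5 (0.63) and Id3 and Smad6 (0.60). Among the Id genes Id1 and Id3 were at 0.54 and Id2 and Id3 at 0.06, and a ligand and responder pair, Id1 and Bmp2, was at -0.50. These are descriptions over 13 points that share libraries and depth. Of all other genes with at least 20 CPM in a class, the patterns nearest to that of Id3 were those of Nedd4 (r = 0.94), Tcf7l1 (0.90) and Grb10 (0.88), and the nearest to Id1 were Wiz (0.92), Pebp1 (0.92) and Skp1a (0.90). For Bmp4 they were Clpx, Stx5a and B4galt7 (0.88 each), and for Bmp7 Ryk (0.81), Ephb2 (0.80) and Rnf170 (0.80).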

How the data were processed

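Whole noses of embryonic day 14.5 mice were profiled in 4 libraries. Raw UMI counts, a gene by a cell barcode each, fill the deposited matrices. The matrix headers name Cell Ranger 8.0.1, while the submitters' processing notes list Cell Ranger 4, Seurat 4.3.0 and mm10; which version made the matrices was not settled. Barcode lists and gene names were deposited beside them. The number of barcodes (2827 to 4846 per library) is that of matrices already filtered to cells by the authors.

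Cells needed 500 or more genes, with mitochondrial UMIs at 10% or less. A cell joined a class when it held at least 3 of that class's markers and led every unrelated class by 2, counting only markers found in at most 15% of cells. Cells with more than 2 of Prrx1, Prrx2, Twist1, Twist2 and Pdgfra were set aside as mixed, unless chondrocyte, osteoblast or mural markers led. This took cells with mesenchymal RNA out of glia, macrophages, endothelium and epithelia but not out of the exempt classes. Its part in the ligand levels was not tested. Mesenchyme needed 4 of 9 markers and no other class, and regions at least 50% of their list. Another 429 cells were mixed and 805 not gated. The scoring rule and the pooling of olfactory and respiratory epithelium were set after cell numbers and leading genes, but not member values, had been seen. The members and lists were chosen with earlier results of these data known. Doublets were kept: Scrublet scores (genes and simulated doublets from scanpy 1.11.5, exact neighbours) served an alternative that removed 149, 56, 87 and 163 of the highest-scoring cells.

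Summed counts of each class in each library entered edgeR 4.0.16 (TMM, filterByExpr, quasi-likelihood, Benjamini-Hochberg over all genes) in R 4.3.3, for classes whose smallest library held at least 20 cells. Standard errors are the log2 change over the root of F. Alternatives were DESeq2 1.42.0, its size factors, no filter, a replicate block, doublets removed, cells with at least 1000 genes and at most 5% mitochondrial UMIs, a gate needing 1 more marker, and each library left out. Shares carry exact 95% binomial intervals. On counts simulated for control against mutant in mesenchyme (15947 genes), 76 of 100 2-fold and 93 of 100 4-fold changes were recovered with 8 false calls. For glia against the rest (15901 genes) 36 and 75 of 100 were recovered with 5 false calls. Control against mutant in glia was not simulated.

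All members are named, with their means in 13 classes in the heat map, though the text gives only part of their class comparisons. Named besides are, per pathway list and class, the 2 called genes with the largest change, those called between genotypes, and for Bmp4, Bmp7, Id1 and Id3 the 3 genes most correlated over classes; a few genes that this rule or the marker lists name are not reported here. Gene positions are GENCODE M21 and promoters RefSeq on GRCm38.p6.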

Additional observations from a re-analysis of the deposited data

Results flagged for a closer look

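The genotype difference of Id1 differed between glia and mesenchyme: the log2 difference of mutant and control libraries was larger in glia by 1.37 ± 0.34 (edgeR quasi-likelihood, adjusted p = 0.0324). It was singled out because the difference between the 2 classes was itself past the threshold. Glial Id1 rests on 41, 16, 48 and 42 UMIs in control 1, control 2, mutant 1 and mutant 2. The share of glial cells with an Id1 UMI, thinned to 3000 UMIs, was 20%, 19.2%, 29.0% and 42.1% (unthinned 55.0%, 37.0%, 48.4% and 60%), with exact 95% intervals that all overlapped. In macrophages the thinned share was at most 4.17%.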

How the results depend on the processing

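Values were recomputed under each alternative. For class comparisons only members called in the main fit were followed. Of their 745 values under an alternative, 706 kept direction and call and 39 lost the call. For genotype, only members whose control and mutant values did not overlap were followed, besides Bmp7 and Smad7 in glia. Of their 449 values, 434 kept direction and call, 10 gained a call and 5 turned sign. A sign can hardly turn where values do not overlap, so the 434 do not measure the stability of all 99 tests. Calls gained by other members enter only the counts of members called that follow. Leaving out each library in turn moved the number of members called between genotypes to 0 to 1 in basal keratinocytes, chondrocytes and palate-type cells, 0 to 2 in mesenchyme and meninges-type cells, and 0 to 3 in glia. With no filter on low counts 1 member was called in mesenchyme (Bmp3) and 1 in meninges-type cells (Bmp7). The stricter gate left 4 members called in dermis-type and 1 in palate-type cells, of 7 and 5. For the interaction of glia and mesenchyme, 0 members were called with DESeq2, with no filter and with the stricter gate, and 0 to 2 with a library left out. Signs turned with a library left out for values near 0 or on few UMIs: Bmp4 in all cells ran from -0.00884 to 0.36, Bmp7 in glia from -1.77 to 0.19 and Smad7 there from -0.27 to 0.75, and in the interaction Bmp7 from -1.89 to 0.36 and Smad7 from -0.50 to 0.65. The cause of these changes was not tested. Genes of any kind called between genotypes numbered 0 to 15 per comparison, but 0 to 48 with DESeq2, 0 to 544 with no filter, 1 to 875 without control 1, 0 to 172 without control 2, 0 to 87 without mutant 1, 0 to 253 without mutant 2, 0 to 40 with doublets removed and 0 to 28 with the stricter gate. With the replicate number as a block 0 members were called in each of the 12 comparisons and 0 to 136 genes; deviations of same-numbered libraries correlated at -0.09 to 0.10, so the libraries share only a number. Stricter cells left too few glia for a test. Within mesenchyme only the called ligand comparisons were followed, so calls that others might gain were not counted. Of their 96 values under an alternative, 65 kept the call and 31 lost it. Glial values rest on 20 to 40 cells per library and 1126834 UMIs in all, which sets their precision.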

Other observations

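The TGF-beta list, read beside the BMP genes, was divided between classes too. In osteoblasts Tgfb1, a ligand gene of that sister pathway, was at a mean of 128 against 14.9 CPM in the rest (log2 difference 3.31 ± 0.16; edgeR quasi-likelihood, adjusted p = 4.27e-92). In mesenchyme Inhba, an activin subunit gene, was higher, at 36.1 against 3.72 CPM (3.34 ± 0.13, adjusted p = 3.51e-07), and Tgfb1 lower, at 7.28 against 39.7 CPM (by 2.39 ± 0.15, adjusted p = 3.54e-06). Of the 8 genes of the list, 7 were lower (13.4% of all genes tested) and 0 higher (7.48%) in glia, where Inhba and Ltbp2 were at 0 UMIs.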
